A study of Mus musculus with 24 samples.

Results

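Solute carriers (SLC genes) that reached a measurable level were described in dendritic cells grown from mouse bone marrow, across 3 strains and with or without lipopolysaccharide (LPS), the endotoxin of Gram-negative bacteria. Members were taken as genes whose symbol begins with Slc, a family number and the letter a, or with Slco, and whose abundance was 1 TPM or more in at least 4 of the 24 libraries. The members were thus chosen by measured TPM, which is read abundance per transcript length scaled to 1000000 in each library, so levels can be set side by side between genes. The table held 370 such symbols among 55291, and 185 of them passed the level. The rule left out 12 carriers of glucose, lactate, amino acids, monoamines and iron (Slc2a1, Slc2a3, Slc2a6, Slc6a4, Slc7a2, Slc7a11, Slc11a1, Slc11a2, Slc16a1, Slc16a3, Slc18a2 and Slc40a1), of which 11 had passed, and 174 genes remained. Just inside the level stood Slc9a5, Slc9a4 and Slc24a3, whose fourth-highest library had 1.11, 1.12 and 1.16 TPM. Just outside stood Slc4a3, Slc25a42 and Slc25a47, at 0.911, 0.926 and 0.995 TPM.

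The study asks how natural genetic variation in mice derived from the wild bears on the response to endotoxin. Marrow cells of B6, C57 and PWD mice were grown with the growth factor GM-CSF and were either left untreated or given LPS of Escherichia coli at 10 ng/ml for 6 hours. PWD mice are inbred and descend from wild mice of the subspecies Mus musculus musculus. The labels keep B6 and C57 apart without stating the difference between them. Each of the 6 groups (B6_Untreated, B6_LPS, C57_Untreated, C57_LPS, PWD_Untreated and PWD_LPS) had 4 libraries, from independent cultures of 4 individual mice per strain, and no age of the mice is stated. GM-CSF cultures of marrow hold macrophage-like and granulocytic cells beside dendritic cells. In such bulk samples fewer cells of a type and less RNA per cell cannot be told apart.

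Solute carriers move amino acids, sugars, ions, metals, nucleotides, lipids and vitamins across the cell surface and across the membranes of organelles, mostly as exchangers or as cotransporters driven by ion gradients. In dendritic cells and macrophages, amino acid and sugar carriers supply a metabolism that shifts on activation. Lysosomal peptide and histidine carriers of the Slc15 family sit beside the endosomal Toll-like receptors, and mitochondrial carriers of the Slc25 family link the cytosol with the respiratory chain. Some members work as pairs, such as Slc3a2, the heavy chain CD98, which brings light chains of the Slc7 family to the cell surface.

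The bases before the start of a gene are part of its promoter, and 4 such stretches are shown because the results turn on these members: Slc27a1 and Slc28a2 had LPS responses that differed between strains, Slc27a3 differed in level between strains, and Slc44a1 was higher with LPS in all 3 strains. Each is the 250 bases that precede a start given by RefSeq, on build GRCm38.p6, holds 0 bases of any exon in GENCODE M21, and is written 5′ to 3′ on the strand of the gene. Slc27a1 is at chr8:71568621-71568870, plus strand. Slc28a2 is at chr2:122426185-122426434, plus strand. Slc27a3 is at chr3:90389939-90390188, minus strand. Slc44a1 is at chr4:53440163-53440412, plus strand. Capitals mark matches to any of 6 motifs searched.
Slc27a1: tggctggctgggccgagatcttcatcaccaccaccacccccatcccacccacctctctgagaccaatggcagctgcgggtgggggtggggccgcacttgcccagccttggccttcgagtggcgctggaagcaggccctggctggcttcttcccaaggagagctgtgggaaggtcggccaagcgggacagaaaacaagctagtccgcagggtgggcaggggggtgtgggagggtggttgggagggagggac
Slc28a2: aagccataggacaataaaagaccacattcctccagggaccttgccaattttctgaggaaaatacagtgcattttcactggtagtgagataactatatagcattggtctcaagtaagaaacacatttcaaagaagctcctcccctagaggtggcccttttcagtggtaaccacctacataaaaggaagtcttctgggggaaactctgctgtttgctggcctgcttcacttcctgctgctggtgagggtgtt
Slc27a3: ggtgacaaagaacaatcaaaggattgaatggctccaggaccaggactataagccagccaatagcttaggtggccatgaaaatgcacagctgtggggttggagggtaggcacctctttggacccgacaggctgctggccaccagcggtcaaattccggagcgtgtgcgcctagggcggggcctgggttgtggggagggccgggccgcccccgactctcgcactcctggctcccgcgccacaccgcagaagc
Slc44a1: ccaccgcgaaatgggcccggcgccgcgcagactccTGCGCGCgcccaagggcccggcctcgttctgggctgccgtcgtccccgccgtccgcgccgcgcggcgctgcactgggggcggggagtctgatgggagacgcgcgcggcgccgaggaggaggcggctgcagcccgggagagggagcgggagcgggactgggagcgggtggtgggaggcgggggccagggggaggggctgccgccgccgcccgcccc
These are reference letters, and the letters carried by PWD were not analysed here.

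The motifs were searched on both strands in the 250 bases of 180 windows, which belong to 130 of the 174 members, and in all 32851 windows of the RefSeq set. The interferon-stimulated response element, by its consensus, was in 2.22% of member windows and 2.98% of all windows. The AP-1 site TGANTCA was in 6.11% and 6.75%, and the ATF4 composite element TGATGNAA in 3.33% and 3.45%. The metal response element TGCGCNC was in 16.1% and 12.5%, the lysosomal E-box TCACGTGA in 1.67% and 0.785%, and the NF-kB motif in 8.89% and 7.25%. Windows of one gene can overlap, matches of different motifs may share letters, and a match is a run of letters, with no binding measured. Of the sequences printed above, Slc44a1 holds a match, to the metal response element.

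Library facts that touch all values were the following. RNA of a few structural and unnamed gene models took 31.7% to 46.6% of TPM, and PWD_Untreated and C57_LPS were split in this by mouse number: 43.3% and 45.2% against 31.7% and 32.8% in PWD_Untreated, and 43.9% and 45.7% against 35.6% and 37.5% in C57_LPS, higher in mice 1 and 2. Mice 3 and 4 of every strain expressed Xist, at 41.9 to 104 TPM, and mice 1 and 2 had at most 0.0901 TPM. The median gene of the 13246 tested was shifted by LPS in the deposited TPM, by -0.43 in B6, -0.32 in C57 and -0.32 in PWD on the log2 scale, and it stood 0.14 and 0.28 higher in PWD than in B6 and 0.17 and 0.29 higher in C57 than in B6, without and with LPS. Positions given with gene names are whole genes of GENCODE M21 on GRCm38. Each change below is on the log2(TPM + 1) scale and is read beside that shift. Conventional dendritic cell markers (10 genes) summed to 6667 to 8847 TPM in untreated B6, 2628 to 3332 in untreated C57 and 3126 to 5396 in untreated PWD, with Flt3 and Xcr1 under 1 TPM in every group mean. Most of that sum was Cd74 and H2-Ab1 of MHC class II, with means of 5790 and 1473 TPM in untreated B6, 1996 and 486 in C57, and 3131 and 802 in PWD, while Itgax had 340.3, 308 and 321 TPM. Macrophage markers (8 genes) summed to 1304 to 1747 TPM in untreated B6, 765 to 969 in C57 and 281 to 394 in PWD. Markers of eosinophils, basophils and mast cells (6 genes) summed to 2.45 to 5.17 TPM in untreated B6 and 94.96 to 197 TPM in untreated PWD. The eosinophil genes Prg2 and Epx made up the difference, with means of 1.66 and 0.179 TPM in untreated B6 and 129.6 and 26.6 in untreated PWD, while Cpa3, Fcer1a and Ms4a2 were under 1 TPM in both. The part of these cell types in the strain differences below was not tested.

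Levels differed widely between members. The mean over 24 libraries was under 5 TPM for 57 members, from 5 to 20 for 64, from 20 to 100 for 48 and 100 TPM or more for 5, with a median of 10.8 TPM. The 5 were Slc25a5, the ADP/ATP exchanger of the inner mitochondrial membrane (335 TPM), Slc3a2 (292 TPM), the lysosomal peptide and histidine carrier Slc15a3 (255 TPM), the mitochondrial phosphate carrier Slc25a3 (208 TPM) and the taurine carrier Slc6a6 (125 TPM). Slc25a5 has near-identical copies in the genome, so its level is uncertain. Exons of Slc15a3, Slc20a1 and Slc25a25 overlap, on the other strand, those of Tmem132a, Gm4430 and Naif1, which had means of 1.23, 2.73 and 2.54 TPM. Of the 174, 126 were at 1 TPM or more in every library, and 19 reached 1 TPM in libraries of 1 strain (9 members) or 1 treatment (13 members, 3 of them in 1 group alone), so that they could pass the level only by differing. Among these 19 are Slc1a2, Slc4a5 and Slc39a1-ps, whose levels are therefore given as a description. Of the members, 7 are no carriers in spite of their symbols. Among them are the scaffold proteins Slc9a3r1 and Slc9a3r2 and the pseudogenes Slc2a4rg-ps and Slc39a1-ps. The others are Slc7a6os and Slc36a3os, which are neighbouring or antisense genes, and Slc4a1ap, which is annotated as protein-coding.

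LPS went with lower levels for most members in each strain, as it did for most genes. A gene was called when limma, fitted over 13246 genes that passed the same level, gave an adjusted p under 0.05. In B6, 131 members were called, 22 higher and 109 lower, where 71.6% of all genes were called, 11.9% higher and 59.7% lower. In C57, 128 were called, 17 higher and 111 lower, against 62.5% of all genes, 10.4% higher and 52.2% lower. In PWD, 125 were called, 20 higher and 105 lower, against 63.5% of all genes, 11.1% higher and 52.4% lower. The median member changed by -0.47, -0.44 and -0.45. After median-of-ratios scaling, which puts the median gene near 0, the splits were 55 higher and 76 lower in B6, 32 and 68 in C57, and 47 and 71 in PWD. Without the 19 members that could pass the level only by differing, 155 remained, with 20 higher and 97 lower in B6, 15 and 102 in C57, and 18 and 95 in PWD. These counts, and those by role below, which include the 19, describe the list, which was put together with results of these data known. Marker sums also moved with LPS. Neutrophil markers (7 genes) went from 1510 to 1752 TPM untreated to 1039 to 1294 with LPS in B6, from 2269 to 3861 to 1419 to 2748 in C57 and from 1657 to 2811 to 742 to 1171 in PWD. Macrophage markers went from 1304 to 1747 TPM to 886 to 951 in B6, from 765 to 969 to 575 to 651 in C57 and from 281 to 394 to 259 to 311 in PWD. Treated and untreated sums overlap for neutrophil markers in C57 and for macrophage markers in PWD. The part of these cells in the LPS changes was not tested.

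**Figure D1:**
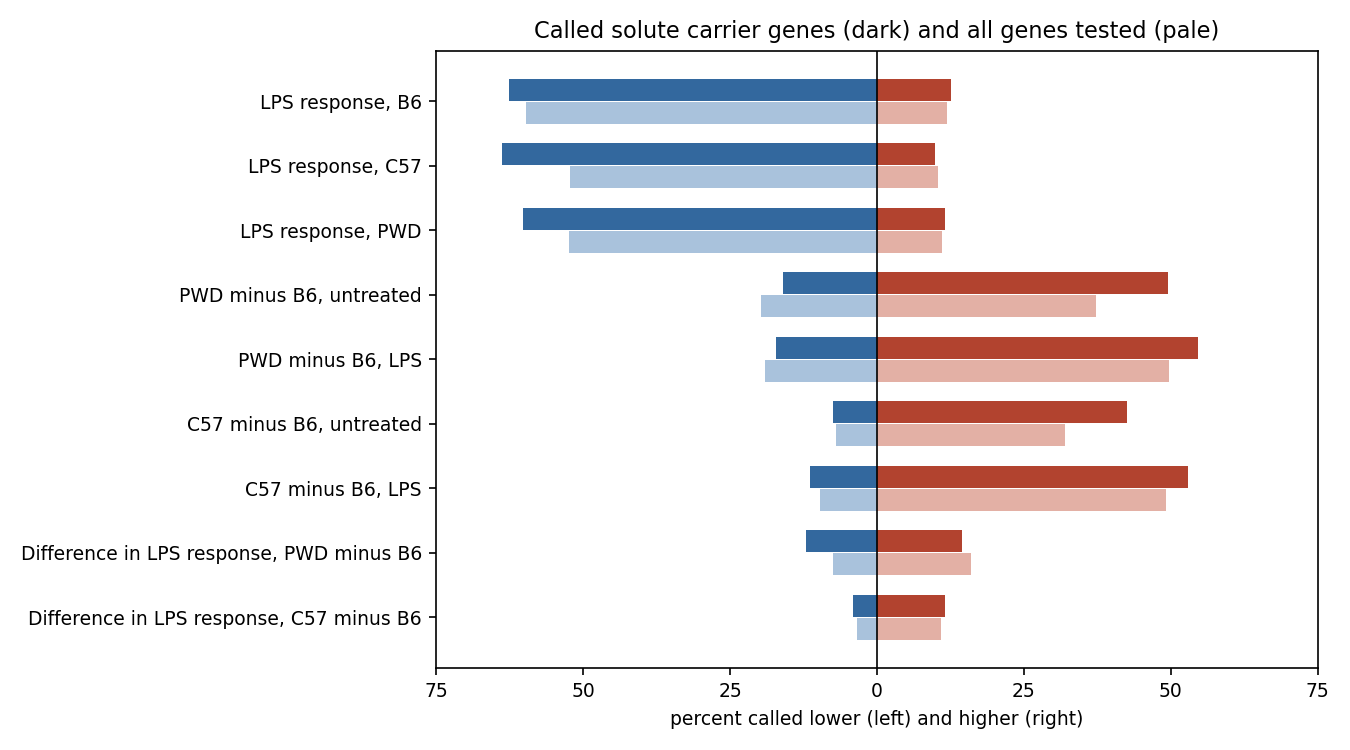
Percent of the 174 solute carrier genes (dark) and of the 13246 genes tested (pale) called lower (left, blue) or higher (right, red) by limma in each of 9 comparisons. For LPS in B6 the bars show 12.6% of members higher and 62.6% lower, beside 11.9% and 59.7% of all genes.

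Of the members, 81 were lower with LPS in all 3 strains and 9 were higher in all 3. The share of all genes called so in all 3 strains is not given here, so these counts describe the list. In single strains, 52.2% to 59.7% of all genes were called lower and 10.4% to 11.9% higher. The 9 were Slc1a2, Slc3a2, Slc16a10, Slc15a3, Slc25a37, Slc39a14, Slc44a1, Slc4a7 and Slco3a1, of which Slc1a2 could pass the level only through treated libraries, so that its direction was given. All 9 were also called higher in all 3 strains after median-of-ratios scaling, where 26 members were. Of the 81, 46 were also called lower in all 3 strains after that scaling. Within mice 1 and 2 alone, 7 of the 9 and 58 of the 81 held, and within mice 3 and 4 alone 7 and 62. No call in any strain was made for 12 members.

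**Figure D2:**
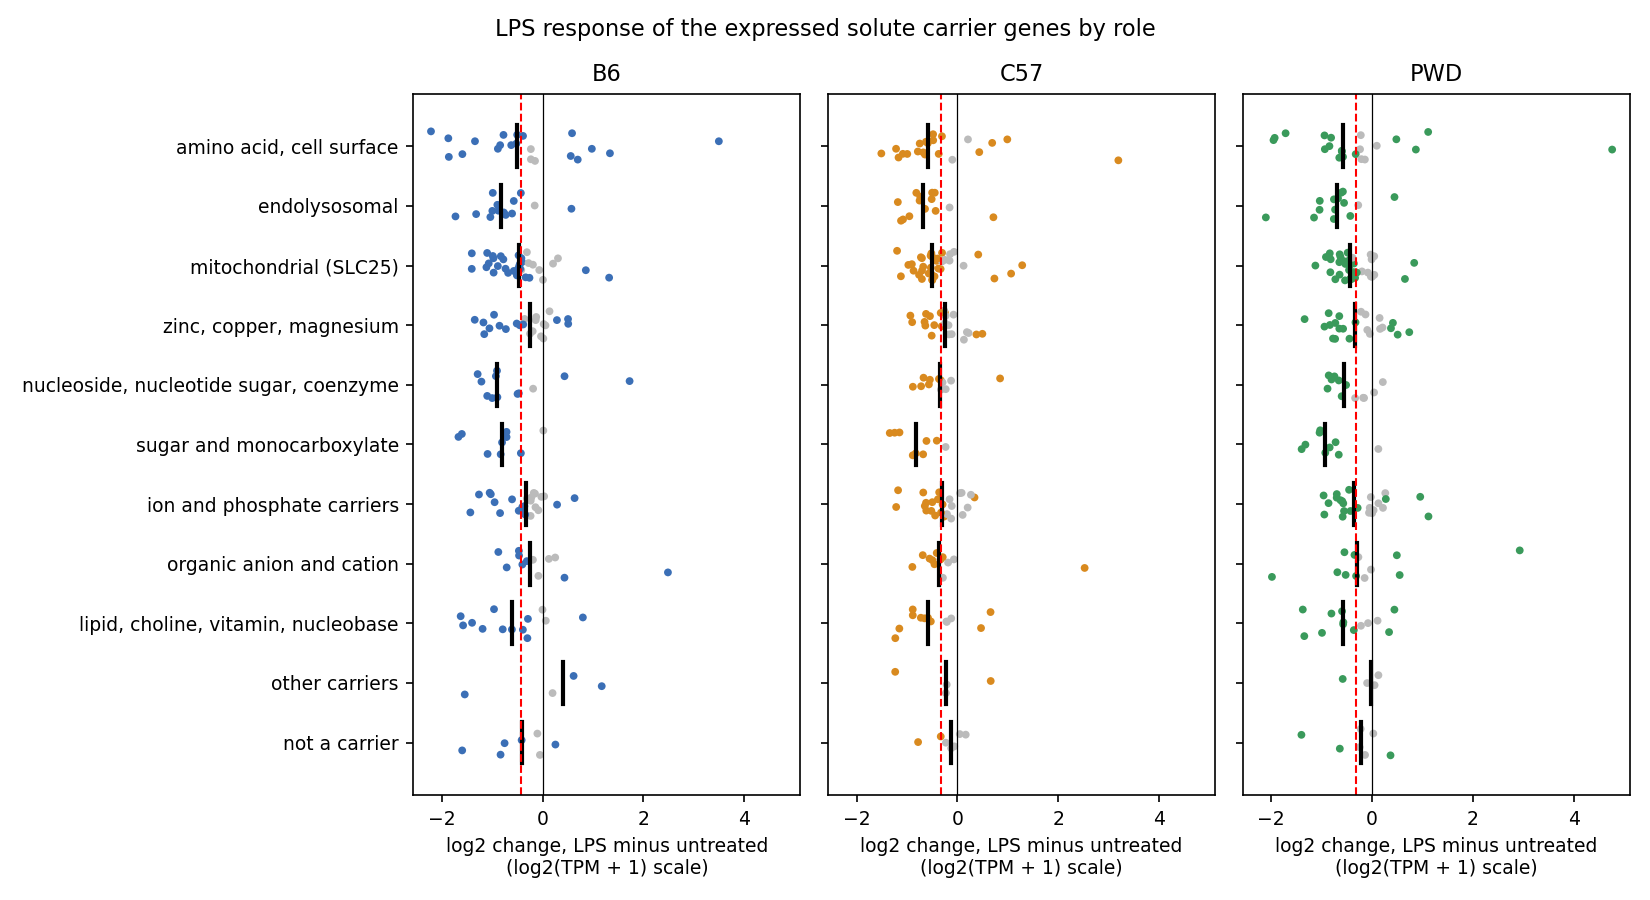
LPS minus untreated log2 change of each member (points; grey where not called) by role in B6, C57 and PWD, with the median of the role (black bar), zero (thin line) and the median of all genes tested (red dashed line). Sugar and monocarboxylate carriers have the lowest role medians in C57 and PWD, at -0.82 and -0.93.

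Amino acid carriers of the cell surface counted 21 members. They were placed in this role by gene family, and whether each, such as Slc38a7 and Slc38a10, acts at the cell surface was not checked. With LPS, 6 rose and 12 fell in B6, 4 rose and 15 fell in C57, and 4 rose and 12 fell in PWD, with medians of -0.51, -0.58 and -0.57. Under median-of-ratios scaling these were 9 and 11, 5 and 10, and 5 and 10. The heavy chain Slc3a2 rose while Slc7a5, the light chain LAT1 that takes up leucine and other large neutral amino acids, fell. Slc3a2 (chr19:8706882-8723369) had 215, 189, 192 and 213 TPM in untreated B6 and 304, 267, 316 and 307 TPM with LPS. In C57 it had 271 to 308 TPM without and 358 to 437 TPM with LPS, and in PWD 197 to 285 TPM and 311 to 348 TPM. Treated and untreated libraries did not overlap in any strain. Its log2 change was 0.56 ± 0.10 (limma adjusted p = 2.17e-05) in B6, 0.44 ± 0.10 (limma adjusted p = 0.00057) in C57 and 0.48 ± 0.10 (limma adjusted p = 0.000179) in PWD, and untreated C57 stood 0.52 ± 0.10 (limma adjusted p = 0.000196) above untreated B6.

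Slc7a5 (chr8:121881150-121907694) had 28.7, 25.9, 22.7 and 28.9 TPM in untreated B6 and 9.56, 7.85, 7.60 and 7.52 TPM with LPS. In C57 it had 28.2 to 31.9 TPM and then 11.2 to 14.7 TPM, and in PWD 34.02 to 55.4 TPM and then 8.81 to 12.4 TPM. Every treated library was below every untreated one in its strain. The change was -1.59 ± 0.13 (limma adjusted p = 6.58e-11) in B6, -1.17 ± 0.13 (limma adjusted p = 4.97e-08) in C57 and -1.93 ± 0.13 (limma adjusted p = 2.90e-12) in PWD. The light chain Slc7a7, which exports cationic amino acids and whose mutation in humans causes lysinuric protein intolerance, was lower in PWD than in B6. It had 14.5 ± 2.30 TPM (SD, n = 4) in untreated B6 and 5.70 ± 1.30 TPM in untreated PWD, and with LPS 12.1 ± 1.5 TPM and 3.50 ± 0.854 TPM. PWD minus B6 was -1.22 ± 0.14 (limma adjusted p = 3.38e-08) without and -1.56 ± 0.14 (limma adjusted p = 2.52e-10) with LPS. An exon of Slc7a7 overlaps one of Oxa1l on the other strand (mean 13.9 TPM), and no source used here says whether counting used strand.

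Another light chain, Slc7a8 (LAT2), an exchanger of neutral amino acids, rose with LPS in B6 and C57. Slc7a8 (chr14:54722209-54781946) had 38.2, 36.2, 36.9 and 40.5 TPM in untreated B6 and 89.02, 102, 99.9 and 98.2 TPM with LPS. C57 libraries had 42.7, 45.05, 43.1 and 46.1 TPM and then 81.5, 83.3, 101 and 91.3 TPM. In PWD it had 54.6, 58.5, 64.5 and 62.95 TPM and then 60.9, 69.4, 65.2 and 61.9 TPM, and these groups overlap. The change was 1.33 ± 0.08 (limma adjusted p = 1.17e-13) in B6 and 0.99 ± 0.08 (limma adjusted p = 1.06e-10) in C57, against 0.10 ± 0.08 (limma adjusted p = 0.3) in PWD. The PWD value was 0.47 (limma adjusted p = 1.50e-06) after median-of-ratios scaling. The LPS response of PWD differed from that of B6 by -1.24 ± 0.11 (limma adjusted p = 7.11e-09), and treated PWD stood -0.59 ± 0.08 (limma adjusted p = 3.31e-07) from treated B6.

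Slc1a2 (chr2:102658659-102790784), the glutamate carrier GLT-1 best known from astrocytes, was near 0 in untreated cells and expressed with LPS. Untreated B6 had 0.147, 0.227, 0.386 and 0.0984 TPM and treated B6 9.45, 11.9, 16.5 and 13.7 TPM. Untreated C57 had 0.0455 to 0.202 TPM and treated C57 9.07 to 9.51 TPM. Untreated PWD had 0.799, 0.704, 0.828 and 0.871 TPM and treated PWD 40.2, 49.2, 49.5 and 54.1 TPM. No library overlaps between treatments, and all 4 treated PWD libraries were above all treated libraries of the other strains. The log2 change with LPS was 3.50, 3.20 and 4.77 in B6, C57 and PWD, given as a description because the gene passed the level through treated libraries. Among treated cells, where it passed in every strain, PWD exceeded B6 by 1.84 ± 0.12 (limma adjusted p = 4.74e-13). The difference between the LPS responses of PWD and B6, 1.27, is likewise a description, and with a pseudocount of 0.1 TPM in place of 1 it was 0.32.

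**Figure D3:**
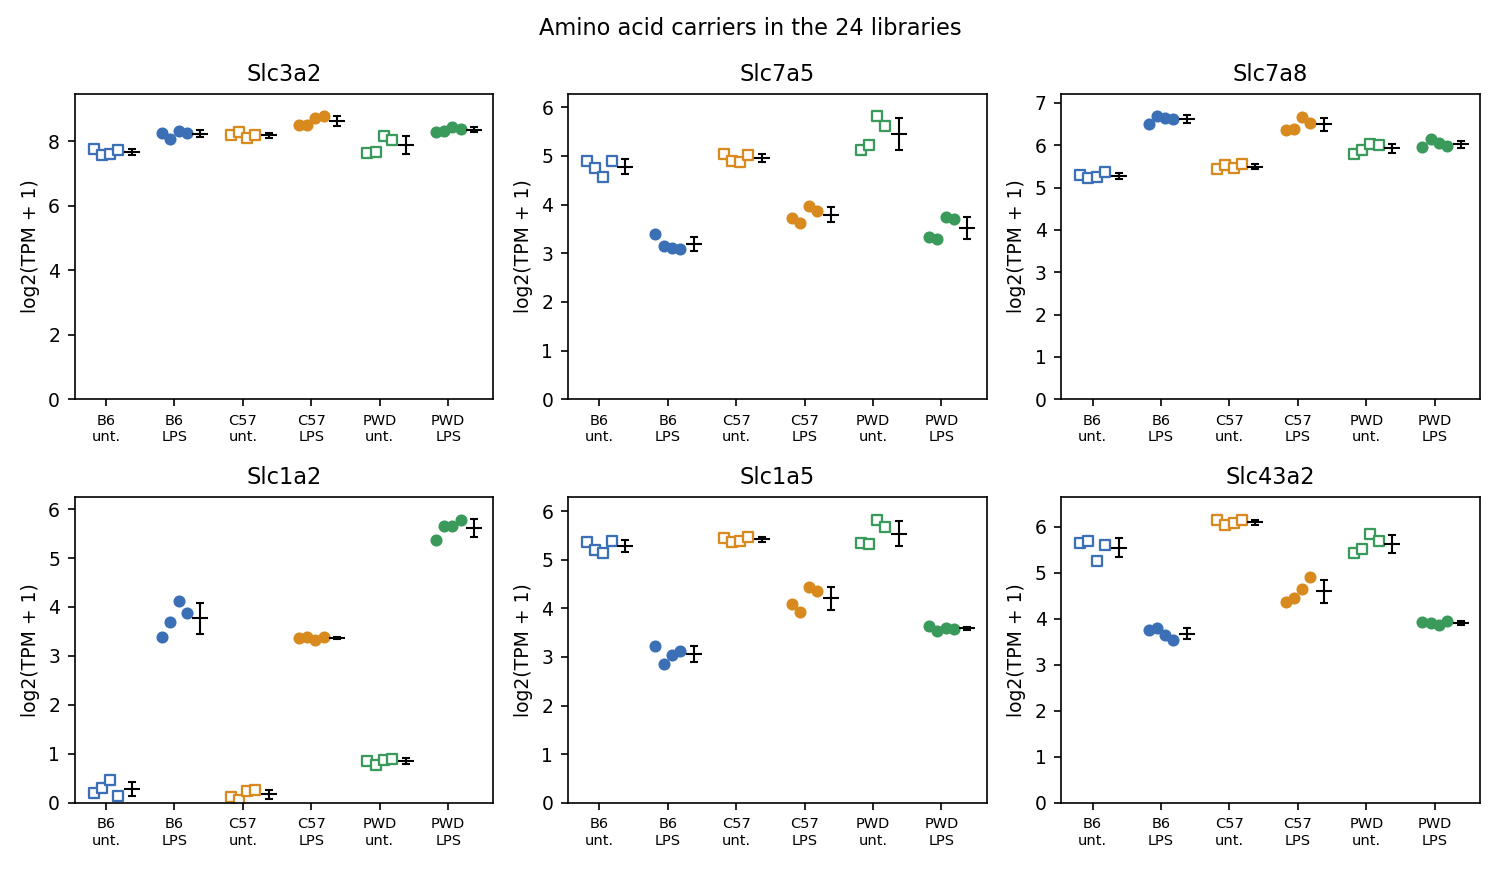
log2(TPM + 1) of 6 amino acid carriers in the 24 libraries (open squares, untreated, "unt."; filled circles, LPS; blue B6, orange C57, green PWD), with mean and SD of each group in black. Slc3a2 and Slc1a2 stand higher and Slc7a5, Slc1a5 and Slc43a2 lower with LPS in every strain, and Slc7a8 higher in B6 and C57.

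Slc1a5, Slc38a1 and Slc38a2, which carry glutamine and other small neutral amino acids, fell with LPS, as did Slc43a2. Slc1a5 (ASCT2, chr7:16781340-16798274), a sodium-dependent glutamine carrier, had 40.4, 35.8, 34.4 and 40.96 TPM in untreated B6 and 8.33, 6.22, 7.25 and 7.73 TPM with LPS. C57 libraries had 42.9, 40.3, 40.6 and 43.4 TPM and then 15.98, 14.3, 20.6 and 19.6 TPM, and PWD libraries 38.8 to 55.7 TPM and then 10.7 to 11.4 TPM. Treated C57 libraries lay above all treated libraries of the other strains. Its change with LPS was -2.22 ± 0.11 (limma adjusted p = 7.90e-15) in B6, -1.22 ± 0.11 (limma adjusted p = 2.12e-09) in C57 and -1.95 ± 0.11 (limma adjusted p = 1.05e-13) in PWD. The response of C57 was smaller than that of B6 by 1.00 ± 0.16 (limma adjusted p = 0.000145), and treated C57 stood 1.14 ± 0.11 (limma adjusted p = 5.01e-09) above treated B6.

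Slc38a1 (SNAT1, chr15:96571418-96642913), another sodium-coupled carrier of glutamine and small neutral amino acids, had 30.2, 28.5, 21.9 and 28.9 TPM in untreated B6 and 7.19, 6.27, 6.77 and 6.82 TPM with LPS. C57 libraries had 32.4 to 33.7 TPM and then 12.8 to 18.6 TPM, and PWD libraries 28.6 to 40.01 TPM and then 16.3 to 20.3 TPM. The treated B6 libraries were the lowest of the 24. Its change with LPS was -1.86 ± 0.12 (limma adjusted p = 3.38e-13) in B6, -1.08 ± 0.12 (limma adjusted p = 2.35e-08) in C57 and -0.81 ± 0.12 (limma adjusted p = 1.81e-06) in PWD, and the response differed from B6 by 1.05 ± 0.17 (limma adjusted p = 3.50e-05) in PWD and by 0.78 ± 0.17 (limma adjusted p = 0.00203) in C57. Its relative Slc38a2 also fell, with changes of -0.78, -0.62 and -0.60 (limma adjusted p up to 2.80e-05) from 38.2 to 53.2 TPM in untreated B6. Slc43a2 (LAT4), a facilitated carrier of branched-chain amino acids and phenylalanine, went from 37.05 to 50.8 TPM to 10.6 to 12.8 TPM in B6, from 64.9 to 70.4 TPM to 19.6 to 29.2 TPM in C57 and from 42.2 to 56.9 TPM to 13.6 to 14.5 TPM in PWD. These are changes of -1.87 ± 0.11 (limma adjusted p = 1.19e-13), -1.51 ± 0.11 (limma adjusted p = 2.38e-11) and -1.71 ± 0.11 (limma adjusted p = 1.01e-12). A short antisense model that overlaps Slc43a2 had a mean of 1.05 TPM.

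Slc38a6, an orphan of the same family, rose in B6 from 4.58 to 7.09 TPM to 9.64 to 13.2 TPM (log2 change 0.70 ± 0.12 SE, limma adjusted p = 1.71e-05). It had 10.7 to 11.8 TPM and 8.74 to 12.3 TPM in C57 and 8.93 to 12.7 TPM and 9.18 to 10.1 TPM in PWD, and the treated and untreated libraries of these strains overlap. The response differed from B6 by -0.84 ± 0.17 (limma adjusted p = 0.00082) in PWD and by -0.79 ± 0.17 (limma adjusted p = 0.00257) in C57, the latter with an adjusted p of 0.0542 by limma within mice 1 and 2 alone. Slc16a10 (TAT1), a carrier of aromatic amino acids, rose in all strains. It had 10.2, 9.95, 8.85 and 11.3 TPM in untreated B6 and 24.2, 16.6, 24.97 and 18.2 TPM with LPS, 20.6 to 26.6 TPM and 33.9 to 41.6 TPM in C57, and 21.3 to 36.3 TPM and 45.4 to 52.5 TPM in PWD. The rise was 0.98 ± 0.14 (limma adjusted p = 7.85e-07), 0.69 ± 0.14 (limma adjusted p = 0.000138) and 0.87 ± 0.14 (limma adjusted p = 7.03e-06). Untreated PWD and C57 were above untreated B6 by 1.29 ± 0.14 (limma adjusted p = 8.02e-09) and 1.12 ± 0.14 (limma adjusted p = 4.95e-07), with no overlap of libraries.

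Slc6a12 (BGT1, chr6:121343076-121365775), which takes up betaine and GABA, had 14.97, 14.2, 11.8 and 13.7 TPM in untreated B6, 29.3, 26, 25.7 and 29.2 TPM in C57 and 3.21, 4.58, 3.92 and 4.05 TPM in PWD. PWD stood -1.57 ± 0.10 (limma adjusted p = 2.72e-13) from B6 and C57 0.96 ± 0.10 (limma adjusted p = 3.60e-08), and no libraries overlap between the 3 strains. With LPS it rose in PWD to 9.16 to 10.2 TPM (log2 change 1.12 ± 0.10 SE, limma adjusted p = 6.56e-10). Treated B6 also stood above untreated B6, at 18.4 to 24.3 TPM. Treated C57, at 29.1 to 35.3 TPM, overlaps its untreated libraries. The taurine carrier Slc6a6 fell in PWD from 143 to 195 TPM to 75.96 to 95.6 TPM (log2 change -0.93 ± 0.10 SE, limma adjusted p = 1.40e-08). In C57 it went from 127 to 142 TPM to 89.9 to 107 TPM, without overlap. In B6 treated and untreated libraries overlap, at 114 to 151 TPM and 115 to 130 TPM. The creatine carrier Slc6a8 had 15.9 to 19.2 TPM in untreated B6 and 39.5 to 45.9 TPM in untreated C57, a difference of 1.24 ± 0.13 (limma adjusted p = 3.10e-08).

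Endolysosomal and vesicular carriers counted 14 members, of which 1 rose and 12 fell with LPS in each strain. Their medians were -0.83 in B6, -0.69 in C57 and -0.70 in PWD. After median-of-ratios scaling 2 rose and 9 fell in B6, 1 and 8 in C57, and 1 and 9 in PWD. Each gene was counted in a single role. Slc31a2 and Slc49a4, described below as endolysosomal or lysosomal, were counted elsewhere, and both stood higher with LPS in B6. The one of the 14 that rose in each strain was Slc15a3 (PHT2, chr19:10839727-10859362), which moves peptides and histidine out of the endolysosome. It had 243, 215, 221 and 238 TPM in untreated B6 and 342, 306, 369.9 and 348 TPM with LPS, 188 to 233 TPM and 322 to 344 TPM in C57, and 154 to 206 TPM and 223 to 257 TPM in PWD. All treated libraries were above all untreated ones of their strain, and treated PWD lay below treated B6 and C57. The rise was 0.57 ± 0.09 (limma adjusted p = 5.93e-06), 0.72 ± 0.09 (limma adjusted p = 4.29e-07) and 0.45 ± 0.09 (limma adjusted p = 0.000195), and PWD minus B6 with LPS was -0.50 ± 0.09 (limma adjusted p = 3.67e-05).

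The related Slc15a4, a histidine carrier that scaffolds endosomal Toll-like receptor signalling, was called lower with LPS. It went from 20.6 ± 4.28 TPM to 13.4 ± 1.69 TPM in B6, from 21.8 ± 2.63 TPM to 15.2 ± 2.19 TPM in C57 and from 23.5 ± 6.49 TPM to 15.1 ± 2.23 TPM in PWD (SD, n = 4). Its log2 change was -0.57, -0.50 and -0.58 (limma adjusted p of 0.00236, 0.00847 and 0.00291), and after median-of-ratios scaling -0.04, -0.14 and -0.21 with adjusted p of 0.803, 0.387 and 0.179 by limma. The lysosomal nucleoside carrier Slc29a3 fell from 28.1 to 35.7 TPM to 13.02 to 14.9 TPM in PWD (log2 change -1.15 ± 0.09 SE, limma adjusted p = 5.74e-11). In B6 and C57 its change was -0.61 and -0.51 (limma adjusted p of 1.99e-06 and 4.00e-05), and in B6 it was -0.06 (limma adjusted p = 0.386) after median-of-ratios scaling.

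Slc37a2 (chr9:37227585-37255738), a sugar phosphate exchanger abundant in macrophages, fell further in PWD than in B6. It had 31.4, 34.6, 22.03 and 26.6 TPM in untreated B6 and 12.5, 11.9, 10.6 and 8.37 TPM with LPS, 32.9 to 38.6 TPM and 14.4 to 16.7 TPM in C57, and 27.6, 30.2, 33.8 and 30.96 TPM and 6.52, 6.90, 6.71 and 5.32 TPM in PWD. Treated PWD libraries were the lowest of all, without overlap with any other group. LPS changed it by -1.32 ± 0.12 (limma adjusted p = 3.56e-10), -1.18 ± 0.12 (limma adjusted p = 8.04e-09) and -2.10 ± 0.12 (limma adjusted p = 5.91e-14), and the response of PWD differed from that of B6 by -0.78 ± 0.17 (limma adjusted p = 0.00121). Slc36a1 (PAT1), the lysosomal proton-coupled amino acid carrier that acts with mTORC1, fell less in PWD than in B6. It had 10.9 to 14.9 TPM in untreated B6 and 2.87 to 3.82 TPM with LPS, 13.4 to 15.99 TPM and 4.72 to 8.96 TPM in C57, and 11.9 to 15.9 TPM and 7.62 to 8.12 TPM in PWD. LPS changed it by -1.73 ± 0.14 (limma adjusted p = 4.79e-11), -1.12 ± 0.14 (limma adjusted p = 2.85e-07) and -0.75 ± 0.14 (limma adjusted p = 5.83e-05), a difference of 0.98 ± 0.20 (limma adjusted p = 0.000721) for PWD against B6. The heme carrier Slc48a1 fell in all strains, with changes of -1.04, -0.64 and -0.61 on the log2 scale (limma adjusted p up to 0.000144). It was lower in untreated PWD, at 35.9 to 50.05 TPM, than in untreated B6, at 74.95 to 103 TPM (log2 change -1.06 ± 0.12 SE, limma adjusted p = 3.80e-08). Macrophage markers were lower in PWD as well, at the sums given above, and their part in this was not tested.

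Mitochondrial carriers of the Slc25 family were the largest role, with 35 members. With LPS 2 rose and 25 fell in B6, 4 and 25 in C57, and 2 and 24 in PWD, with medians of -0.48, -0.50 and -0.44. The shift of all genes was -0.43, -0.32 and -0.32, so the role median lay near it in B6 and further below it in C57 and PWD. After median-of-ratios scaling 10 rose and 13 fell in B6, 6 and 15 in C57, and 8 and 9 in PWD. The abundant Slc25a5 fell in B6 from 344 to 422 TPM to 200.2 to 246 TPM, with log2 changes of -0.78, -0.70 and -0.64 in the 3 strains (limma adjusted p up to 2.34e-05). Slc25a3 had changes of -0.42, -0.41 and -0.45 (limma adjusted p up to 0.000811). These are the size of the shift of all genes in B6 and somewhat beyond it in C57 and PWD. After median-of-ratios scaling they were 0.14 (limma adjusted p = 0.00796), -0.04 (limma adjusted p = 0.5) and -0.07 (limma adjusted p = 0.158). Slc25a39, which brings glutathione into mitochondria, fell beyond the shift, from 44.4 to 53.1 TPM to 21.1 to 23.8 TPM in B6 (log2 change -1.07 ± 0.11 SE, limma adjusted p = 1.45e-09), with -1.20 in C57 and -0.84 in PWD (limma adjusted p up to 2.01e-07).

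Slc25a37 (mitoferrin-1, chr14:69241848-69285112), which imports iron for heme and iron-sulfur clusters, rose in each strain. It had 10.5, 11.7, 9.09 and 11.7 TPM in untreated B6 and 18.8, 19.5, 23.7 and 19.1 TPM with LPS, 14.4 to 16.5 TPM and 30.4 to 37.4 TPM in C57, and 12.7 to 17.96 TPM and 23.3 to 24.9 TPM in PWD. No treated library overlaps an untreated one of its strain. The rise was 0.86 ± 0.10 (limma adjusted p = 5.63e-08), 1.07 ± 0.10 (limma adjusted p = 3.49e-09) and 0.66 ± 0.10 (limma adjusted p = 6.36e-06). Slc25a25, a calcium-regulated ATP-magnesium/phosphate carrier, rose in C57 by 0.74 ± 0.14 (limma adjusted p = 5.72e-05) and in PWD by 0.84 ± 0.14 (limma adjusted p = 9.82e-06), to 22.1 to 31.4 TPM and 29.7 to 36.5 TPM. Untreated it had 14.5 to 16.2 TPM and 12.8 to 22.7 TPM. Treated B6 had 13.1 to 17.3 TPM, which overlaps the untreated libraries at 11.2 to 15.1 TPM.

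Slc25a22 (chr7:141429744-141437892), a mitochondrial glutamate carrier, differed between strains in its response. It had 26.3, 22.4, 27.2 and 29.6 TPM in untreated B6 and 73.3, 63.1, 68.5 and 63.5 TPM with LPS. In C57 it had 21.2, 24.6, 20.3 and 22.6 TPM and then 52.04, 53.7, 60.01 and 56.4 TPM. In PWD it had 10.8, 9.69, 18.8 and 10.96 TPM and then 9.26, 14.5, 13.1 and 11.5 TPM. Treated B6 and C57 did not overlap their untreated libraries, and the PWD groups overlap. The change was 1.32 ± 0.14 (limma adjusted p = 6.67e-09) in B6 and 1.29 ± 0.14 (limma adjusted p = 2.70e-08) in C57, against -0.02 ± 0.14 (limma adjusted p = 0.913) in PWD. Without the third untreated PWD library, the highest of that group, the PWD change was 0.18 (limma adjusted p = 0.195), and after median-of-ratios scaling 0.33 (limma adjusted p = 0.0256). The response of PWD differed from that of B6 by -1.34 ± 0.20 (limma adjusted p = 1.64e-05). PWD minus B6 was -1.05 ± 0.14 (limma adjusted p = 3.89e-07) without and -2.39 ± 0.14 (limma adjusted p = 3.46e-14) with LPS.

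Carriers of zinc, copper and magnesium counted 23 members, with 3 higher and 10 lower with LPS in B6, 2 and 11 in C57, and 4 and 12 in PWD. Their medians were -0.25, -0.25 and -0.33. After median-of-ratios scaling 11 rose and 7 fell in B6, 6 and 6 in C57, and 10 and 10 in PWD, so the balance turned in B6. Slc39a14 (ZIP14), an importer of zinc, iron and manganese, was called higher in every strain, with 16.6 ± 2.43 TPM and 20.4 ± 1.70 TPM in B6, 21.5 ± 2.76 TPM and 30.8 ± 4.96 TPM in C57, and 24.8 ± 4.14 TPM and 32.2 ± 2.31 TPM in PWD (SD, n = 4). The change was 0.28 ± 0.12 (limma adjusted p = 0.041), 0.50 ± 0.12 (limma adjusted p = 0.00105) and 0.38 ± 0.12 (limma adjusted p = 0.00929). The B6 call was lost, with limma adjusted p of 0.0575 to 0.164, when untreated replicate 2, 3 or 4 or treated replicate 1, 2 or 3 of B6 was left out, and it was not made within mice 1 and 2 or within mice 3 and 4 alone (0.0857 and 0.113). The copper carrier Slc31a2, which acts in endolysosomes, rose in PWD from 39.03 to 55.1 TPM to 70.8 to 82.05 TPM (log2 change 0.74 ± 0.11 SE, limma adjusted p = 2.05e-06). In B6 it went from 38.6 to 51.6 TPM to 62.1 to 73.03 TPM, without overlap, and in C57 treated and untreated libraries overlap. Slc30a1, which exports zinc across the cell surface, fell in PWD from 10.7 to 13.6 TPM to 5.31 to 6.18 TPM (log2 change -0.94 ± 0.10 SE, limma adjusted p = 1.67e-08).

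Zinc carriers differed between strains in both directions. Slc39a4 (ZIP4, chr15:76612383-76617384), the importer whose loss causes acrodermatitis enteropathica in humans, had 18.4, 16.9, 13.6 and 15.9 TPM in untreated B6, 18.4 to 23.6 TPM in C57 and 1.74, 1.67, 2.002 and 1.85 TPM in PWD. With LPS the levels were 9.18 to 12.7 TPM, 16.1 to 19.2 TPM and 2.31 to 3.02 TPM. All 8 PWD libraries were below all 16 others. PWD minus B6 was -2.60 ± 0.11 (limma adjusted p = 2.46e-17) without and -1.67 ± 0.11 (limma adjusted p = 3.11e-13) with LPS. Slc30a4, which loads zinc into vesicles, was lower in PWD, with 13.7 to 23.1 TPM against 33.03 to 43.03 TPM untreated and a difference of -1.06 ± 0.13 (limma adjusted p = 5.16e-08) without and -1.16 ± 0.13 (limma adjusted p = 8.17e-09) with LPS.

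Slc39a2 (ZIP2) had 4.91 to 6.71 TPM in untreated B6, 18.8 to 22.4 TPM in C57 and 15.3 to 17.8 TPM in PWD. C57 exceeded B6 by 1.63 ± 0.12 (limma adjusted p = 6.38e-11) without and 1.15 ± 0.12 (limma adjusted p = 9.77e-09) with LPS, and untreated PWD exceeded untreated B6 by 1.33 ± 0.12 (limma adjusted p = 2.60e-10). An exon of Slc39a2 overlaps one of Mettl17 on the same strand (mean 8.84 TPM), so its reads are uncertain. Slc39a6 was higher in treated C57 and PWD, at 12.8 to 16.6 TPM and 14.03 to 16.3 TPM, than in treated B6, at 4.09 to 5.67 TPM. These differences were 1.43 ± 0.10 (limma adjusted p = 1.19e-11) and 1.42 ± 0.10 (limma adjusted p = 1.77e-12). Slc39a8 (ZIP8) was low in untreated B6, at 0.332 to 0.530 TPM, and higher in untreated PWD, at 3.17 to 3.96 TPM (log2 change 1.70 ± 0.10 SE, limma adjusted p = 5.67e-14).

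Carriers of nucleosides, nucleotide sugars and coenzymes, which serve the cell surface, Golgi and endoplasmic reticulum, counted 12 members. The 12 include Slc37a1, Slc37a3 and Slc37a4, relatives of the sugar phosphate exchanger Slc37a2, so the name of the role does not cover all of them. With LPS 2 rose and 9 fell in B6, 1 and 7 in C57, and 0 and 7 in PWD, with medians of -0.90, -0.35 and -0.56. After median-of-ratios scaling the counts were 3 and 7, 2 and 3, and 3 and 5. Slc28a2 (CNT2, chr2:122426477-122461137), a sodium-coupled purine nucleoside carrier, rose in B6 and C57. It had 1.02, 0.768, 0.948 and 0.975 TPM in untreated B6 and 4.68, 4.41, 6.36 and 6.25 TPM with LPS, 1.80, 1.61, 1.74 and 1.75 TPM and 3.72, 3.37, 4.76 and 3.88 TPM in C57, and 1.29, 1.28, 1.66 and 2.73 TPM and 1.51, 1.97, 2.47 and 2.65 TPM in PWD. The PWD groups overlap and the others do not. The change was 1.73 ± 0.15 (limma adjusted p = 8.70e-11), 0.85 ± 0.15 (limma adjusted p = 2.09e-05) and, in PWD, 0.22 ± 0.15 (limma adjusted p = 0.2). Without the fourth untreated PWD library the PWD value was 0.37 (limma adjusted p = 0.0219), and after median-of-ratios scaling 0.46 (limma adjusted p = 0.003). The response differed from that of B6 by -1.51 ± 0.21 (limma adjusted p = 4.62e-06) in PWD and -0.88 ± 0.21 (limma adjusted p = 0.00472) in C57.

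Slc29a1 (ENT1), the equilibrative nucleoside carrier of the cell surface, moved the other way. It had 16.9 to 22.3 TPM in untreated B6 and 6.36 to 9.67 TPM with LPS, 27.5 to 35.3 TPM and 14.9 to 22.6 TPM in C57, and 36.9 to 45.9 TPM and 20.4 to 26.6 TPM in PWD. LPS changed it by -1.22 ± 0.13 (limma adjusted p = 4.90e-09), -0.67 ± 0.13 (limma adjusted p = 7.71e-05) and -0.80 ± 0.13 (limma adjusted p = 7.02e-06), and treated C57 stood 1.19 ± 0.13 (limma adjusted p = 1.58e-08) above treated B6. For the LPS response of C57 against that of B6, 5 of the 12 members were called, 3 with a higher and 2 with a lower change. Of all genes, 14.3% were called there, 10.9% higher and 3.39% lower. The acetyl-CoA carrier Slc33a1 stood lower in treated C57 than in treated B6 (log2 change -0.79 ± 0.11 SE, limma adjusted p = 7.16e-07), at 14.97 to 16.7 TPM and 25.04 to 29.6 TPM, with a difference of responses of -0.56 ± 0.15 (limma adjusted p = 0.0139). For the UDP-galactose carrier Slc35a2 the responses differed by 0.77 ± 0.18 (limma adjusted p = 0.00531). For Slc37a3 they differed by 0.97 ± 0.23 (limma adjusted p = 0.00429), and it had 15.7 to 25.01 TPM and 5.95 to 9.02 TPM in B6 and 14.1 to 22.7 TPM and 12.6 to 15.4 TPM in C57. Within mice 1 and 2 alone the Slc33a1 and Slc35a2 differences had limma adjusted p of 0.196 and 0.0537, and within mice 3 and 4 that of Slc35a2 had 0.0664.

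Carriers of sugars and of mono- and dicarboxylates fell together. Of 9 members, 8 fell and 0 rose in each strain, with medians of -0.81 in B6, -0.82 in C57 and -0.93 in PWD, below the shift of all genes. Slc16a14, among the 8, passed the level through untreated PWD alone, so its fall in PWD was given. Without it 7 of 8 fell in each strain. After median-of-ratios scaling 7, 6 and 7 fell and 1, 0 and 1 rose, with medians of -0.62, -0.48 and -0.66. Their summed level was 31.8 to 38 TPM in untreated B6 and 11.1 to 15.4 with LPS, 52.5 to 55.1 and 21.2 to 26.9 in C57, and 56.5 to 74.6 and 29.8 to 33.4 in PWD. No treated library overlaps an untreated one of its strain. The rule left out the best-known carriers of glucose and lactate, so this group does not stand for sugar uptake as a whole.

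Slc50a1 (SWEET1), a sugar carrier of the Golgi, had 10.4, 10.1, 10.1 and 8.98 TPM in untreated B6 and 4.67, 4.43, 5.71 and 5.74 TPM with LPS. It changed by -0.83 ± 0.11 (limma adjusted p = 1.14e-07), -0.82 ± 0.11 (limma adjusted p = 3.17e-07) and -0.72 ± 0.11 (limma adjusted p = 1.99e-06) on the log2 scale. Slc45a4, a member of the proton-coupled sugar carrier family, went from 7.38 to 9.83 TPM to 1.73 to 2.98 TPM in B6, with changes of -1.60, -1.24 and -1.32 (limma adjusted p up to 1.49e-08). Slc16a6, a monocarboxylate carrier family member known to export ketone bodies, went from 5.10 to 6.34 TPM to 0.863 to 1.46 TPM in B6 and changed by -1.67, -1.15 and -1.03 (limma adjusted p up to 3.67e-08). Its exons overlap Amz2 on the other strand (mean 11.4 TPM). In untreated cells 8 of the 9 were higher in PWD than in B6 and 0 lower, where 37.2% of all genes were higher, and 7 were higher after median-of-ratios scaling. One of the 8, Slc16a14, passed the level through untreated PWD alone, so it had to be higher there. Slc2a9, a urate carrier, had 0.757 to 1.32 TPM in untreated B6 and 4.63 to 8.04 TPM in PWD (log2 change 1.78 ± 0.16 SE, limma adjusted p = 1.63e-10). Slc16a7 (MCT2), a carrier of pyruvate and lactate with high affinity, had 0.754 to 1.82 TPM and 4.52 to 7.44 TPM (log2 change 1.503 ± 0.17 SE, limma adjusted p = 2.63e-08).

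Ion and phosphate carriers counted 24 members, with 2 higher and 12 lower with LPS in B6, 1 and 14 in C57, and 3 and 13 in PWD, and medians of -0.33, -0.31 and -0.35. Under median-of-ratios scaling these were 7 and 8, 6 and 7, and 8 and 9. Slc20a1 (PiT-1, chr2:129198764-129211616), a sodium-phosphate cotransporter that also serves some retroviruses as receptor, changed in opposite directions. It had 65.7, 63.6, 62.5 and 63.8 TPM in untreated B6 and 31.01, 29.9, 34.96 and 27.8 TPM with LPS. In C57 it had 81.8, 92.8, 84.2 and 90.9 TPM and 84.2, 86.8, 104 and 103 TPM, and in PWD 76.4, 79.9, 101 and 98.3 TPM and 118, 112, 98.5 and 101 TPM. Treated B6 libraries lay below all 20 others. The change was -1.03 ± 0.10 (limma adjusted p = 6.40e-10) in B6, 0.11 ± 0.10 (limma adjusted p = 0.349) in C57 and 0.28 ± 0.10 (limma adjusted p = 0.0157) in PWD. After median-of-ratios scaling the C57 value was 0.48 (limma adjusted p = 2.03e-06). The PWD call was lost without untreated PWD replicate 1 or 2 or treated PWD replicate 1 (limma adjusted p of 0.0557 to 0.0664), and within mice 3 and 4 alone the value was 0.00 (limma adjusted p = 0.995). The difference of responses was 1.30 ± 0.14 (limma adjusted p = 8.26e-08) for PWD and 1.14 ± 0.14 (limma adjusted p = 4.26e-06) for C57 against B6. Treated PWD and C57 stood 1.76 ± 0.10 (limma adjusted p = 7.39e-15) and 1.58 ± 0.10 (limma adjusted p = 8.89e-13) above treated B6.

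Slc4a5 (chr6:83219828-83304945), a sodium bicarbonate cotransporter, was expressed in PWD and near 0 elsewhere. Untreated PWD had 14.9, 15.5, 21.5 and 22.2 TPM and treated PWD 8.74, 12.7, 12.3 and 12.8 TPM. Untreated B6 and C57 had 0.0404 to 0.302 TPM and 0.0467 to 0.306 TPM, and treated B6 and C57 had 0 to 0.0375 TPM and 0 to 0.262 TPM. The gene passed the level through PWD libraries alone, so the log2 difference of 4.10 untreated and 3.62 treated is a description. Slc4a7, another sodium bicarbonate cotransporter, rose in PWD from 19.97 to 29.5 TPM to 45.1 to 52.9 TPM (log2 change 0.96 ± 0.11 SE, limma adjusted p = 7.50e-08). In C57 and B6 its change was 0.34 and 0.29 (limma adjusted p of 0.0113 and 0.0271). The B6 call was lost without untreated B6 replicate 3 or treated B6 replicate 1 or 3 (limma adjusted p of 0.0623 to 0.165) and within mice 1 and 2 alone (0.226). The potassium-chloride cotransporter Slc12a7 was higher in C57 than in B6, at 12.2 to 14.1 TPM against 4.07 to 7.59 TPM untreated and 4.91 to 6.25 TPM against 1.29 to 1.71 TPM with LPS. These differences were 1.07 ± 0.15 (limma adjusted p = 2.18e-06) and 1.33 ± 0.15 (limma adjusted p = 2.32e-08). The sodium-calcium exchanger Slc8a1 was lower in treated C57, at 18.8 to 21.1 TPM, than in treated B6, at 30.1 to 35.05 TPM (log2 change -0.67 ± 0.12 SE, limma adjusted p = 3.42e-05).

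Organic anion and cation carriers counted 12 members, with 2 higher and 6 lower with LPS in B6, 1 and 8 in C57, and 3 and 6 in PWD, and medians of -0.25, -0.37 and -0.29. With the median-of-ratios factors they were 5 and 3, 1 and 3, and 3 and 3. The summed level of the 12 was higher with LPS in every strain, at 55.5 to 76.4 TPM untreated and 141 to 162 with LPS in B6, 70.02 to 77.4 and 102 to 123 in C57, and 69.3 to 90.4 and 96.01 to 108 in PWD. Slco3a1 carried this: without it the sum was 39.7 to 50.5 TPM untreated and 32.9 to 35.04 with LPS in B6, 60 to 64.98 and 36.4 to 48.1 in C57, and 64.2 to 83.5 and 50.3 to 53.6 in PWD, lower with LPS in each strain. Slco3a1 (chr7:74275419-74554780), an organic anion carrier known to move prostaglandins and thyroid hormone, had 25.9, 22.7, 15.8 and 18.4 TPM in untreated B6 and 127, 108, 126 and 114 TPM with LPS. In C57 it had 12.8, 12.4, 9.90 and 10.02 TPM and 65.4, 67.2, 74.8 and 70.8 TPM, and in PWD 4.86, 5.21, 5.87 and 6.90 TPM and 45.2, 49.5, 50.8 and 54.6 TPM. The order B6, C57, PWD held in both treatments without overlap. The rise was 2.49 ± 0.12 (limma adjusted p = 2.62e-15) in B6, 2.53 ± 0.12 (limma adjusted p = 4.36e-15) in C57 and 2.93 ± 0.12 (limma adjusted p = 6.34e-17) in PWD.

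Against B6, Slco3a1 in PWD stood -1.68 ± 0.12 (limma adjusted p = 2.95e-12) untreated and -1.23 ± 0.12 (limma adjusted p = 1.14e-09) with LPS, and in C57 -0.80 ± 0.12 (limma adjusted p = 8.83e-06) and -0.76 ± 0.12 (limma adjusted p = 6.72e-06). Slco2b1 (chr7:99657804-99711340), a carrier of steroid sulfates and drugs that is also used as a macrophage marker, went against this order. Untreated it had 0.412, 0.482, 0.310 and 0.506 TPM in B6, 0.795 to 1.38 TPM in C57 and 8.36, 7.97, 8.81 and 9.10 TPM in PWD. With LPS it had 0 to 0.0764 TPM in B6, 0.125 to 0.248 TPM in C57 and 1.36, 1.61, 1.35 and 1.34 TPM in PWD. Untreated PWD libraries were the highest of all. Slco2b1 reached 1 TPM in 11 libraries, those of PWD and some of untreated C57, and would have missed the level without PWD. The log2 difference of PWD minus B6 in untreated cells, 2.74, is therefore a description. LPS changed Slco2b1 by -1.98 ± 0.10 (limma adjusted p = 6.66e-15) in PWD. The difference between the responses of PWD and B6, -1.51 ± 0.14 (limma adjusted p = 1.59e-08), was -0.46 (limma adjusted p = 0.349) with a pseudocount of 0.1 TPM. B6 was under 1 TPM in all 8 libraries. The part of macrophages, whose marker sums are given above, was not tested.

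Slc22a23, an orphan of the organic ion family, was lower in PWD and C57 than in B6. It had 4.20 to 7.64 TPM in untreated B6, 1.28 to 2.57 TPM in C57 and 0.691 to 1.39 TPM in PWD, and 5.57 to 8.07 TPM, 1.20 to 1.98 TPM and 1.83 to 2.35 TPM with LPS. PWD minus B6 was -1.63 ± 0.16 (limma adjusted p = 1.40e-09) and -1.32 ± 0.16 (limma adjusted p = 4.61e-08), and C57 minus B6 -1.23 ± 0.16 (limma adjusted p = 9.63e-07) and -1.66 ± 0.16 (limma adjusted p = 2.29e-09). Slc22a15, which carries zwitterions such as carnosine, was higher in untreated PWD, at 13.6 to 19.2 TPM, than in untreated B6, at 3.53 to 5.27 TPM (log2 change 1.74 ± 0.13 SE, limma adjusted p = 7.23e-12). Slco4a1, a carrier of thyroid hormone, was higher in untreated C57, at 7.33 to 8.31 TPM, than in untreated B6, at 2.43 to 3.43 TPM (log2 change 1.18 ± 0.12 SE, limma adjusted p = 1.35e-08).

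**Figure D4:**
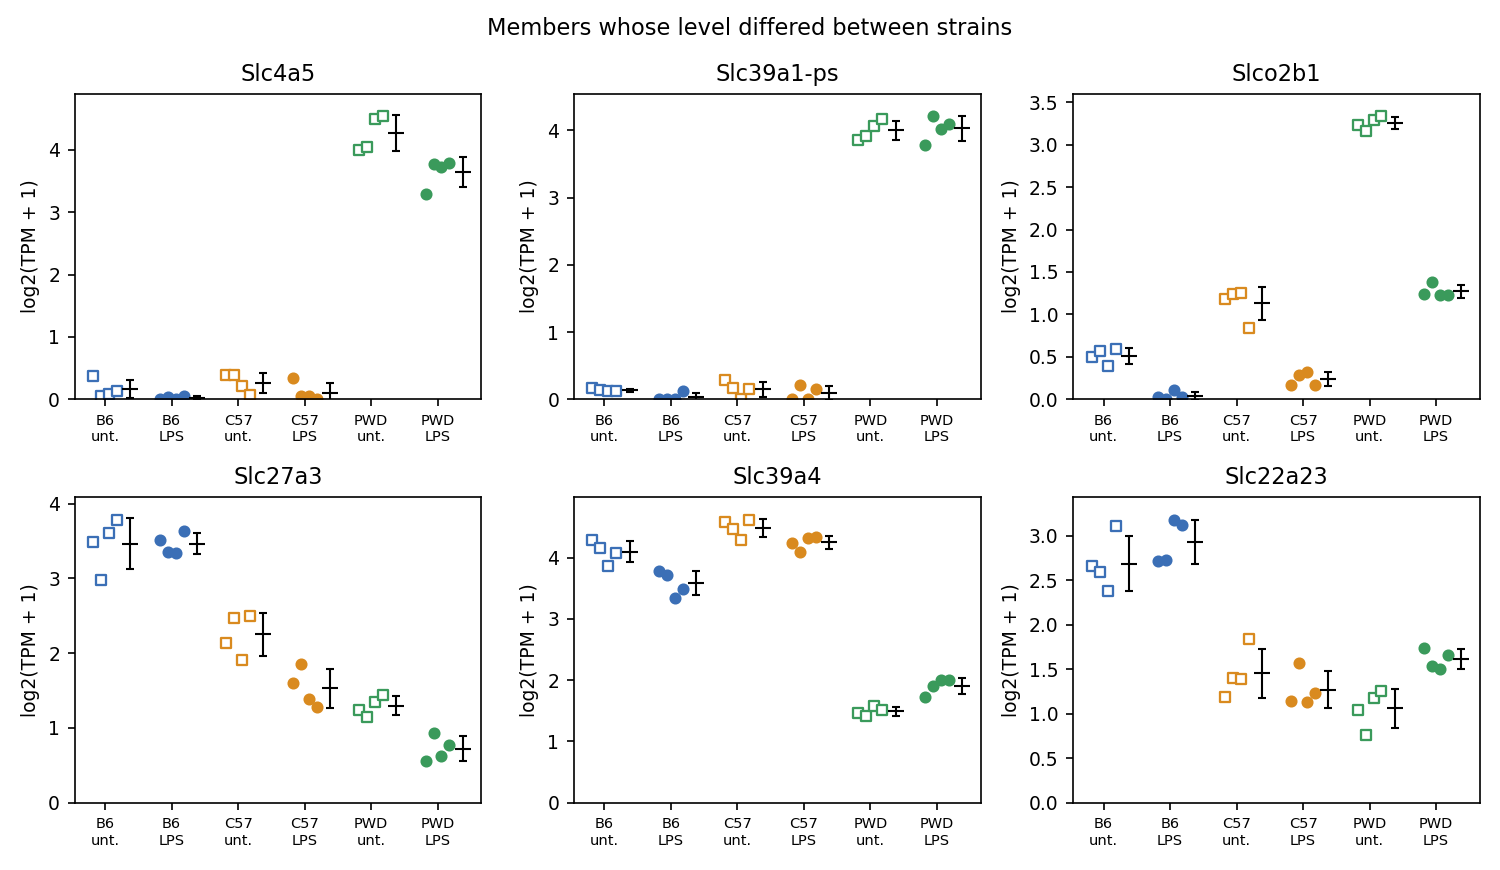
log2(TPM + 1) of 6 members in the 24 libraries (open squares, untreated, "unt."; filled circles, LPS; blue B6, orange C57, green PWD), with mean and SD of each group in black. Slc4a5, Slc39a1-ps and untreated Slco2b1 stand highest in PWD, while Slc27a3, Slc39a4 and Slc22a23 stand lower in PWD than in B6.

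Carriers of lipids, choline, vitamins and nucleobases counted 13 members. With LPS 1 rose and 10 fell in B6, 2 and 8 in C57, and 2 and 8 in PWD, with medians of -0.61, -0.58 and -0.57. After median-of-ratios scaling the counts were 3 and 7, 2 and 8, and 4 and 6. Slc27a1 (FATP1, chr8:71568882-71587302), a fatty acid transport protein with acyl-CoA synthetase activity whose upstream sequence is printed above, had 10.5, 12.9, 10.1 and 11.6 TPM in untreated B6 and 3.19, 3.54, 2.80 and 2.40 TPM with LPS. C57 libraries had 24.6, 24.2, 24.6 and 23.9 TPM and then 12.6, 12.3, 12.96 and 13.04 TPM, and PWD libraries 16.98, 16.9, 17.7 and 17.9 TPM and then 17.3, 17.7, 10.6 and 14.7 TPM. Treated B6 was below all other libraries, and the PWD groups overlap. LPS changed it by -1.63 ± 0.12 (limma adjusted p = 3.25e-12) in B6 and -0.88 ± 0.12 (limma adjusted p = 4.64e-07) in C57, against -0.22 ± 0.12 (limma adjusted p = 0.103) in PWD. The PWD value was -0.29 (limma adjusted p = 0.0461) without treated PWD replicate 1 and -0.30 (limma adjusted p = 0.0354) without replicate 2, and 0.14 (limma adjusted p = 0.358) after median-of-ratios scaling. The response differed from B6 by 1.41 ± 0.16 (limma adjusted p = 4.00e-07) in PWD and by 0.74 ± 0.16 (limma adjusted p = 0.00272) in C57, and the C57 difference had a limma adjusted p of 0.0746 after quantile normalization. Treated PWD and C57 stood 2.00 ± 0.12 (limma adjusted p = 2.37e-14) and 1.79 ± 0.12 (limma adjusted p = 2.29e-12) above treated B6.

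Other fatty acid transport proteins differed by strain in opposite directions. Slc27a3 (FATP3, chr3:90385239-90389938) had 10.2, 6.90, 11.2 and 12.8 TPM in untreated B6, 3.40, 4.52, 2.74 and 4.67 TPM in C57 and 1.36, 1.22, 1.54 and 1.72 TPM in PWD, and with LPS 9.14 to 11.5 TPM, 1.42 to 2.63 TPM and 0.479 to 0.917 TPM. Within each treatment the order B6, C57, PWD held without overlap. PWD minus B6 was -2.17 ± 0.16 (limma adjusted p = 3.41e-12) and -2.74 ± 0.16 (limma adjusted p = 2.13e-14), and C57 minus B6 -1.21 ± 0.16 (limma adjusted p = 1.04e-06) and -1.93 ± 0.16 (limma adjusted p = 1.35e-10). Slc27a4 (FATP4) was higher in PWD than in B6, at 23.3 to 35.03 TPM against 9.88 to 11.7 TPM untreated and 20.2 to 24.1 TPM against 7.37 to 9.38 TPM with LPS. These differences were 1.29 ± 0.11 (limma adjusted p = 1.28e-10) and 1.32 ± 0.11 (limma adjusted p = 6.06e-11).

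Slc44a1 (CTL1), the main choline carrier of the cell surface, rose with LPS. It had 9.89, 10.2, 9.08 and 10.4 TPM in untreated B6 and 18.6, 16.5, 20.01 and 16.8 TPM with LPS, 9.76 to 10.8 TPM and 14.9 to 18.9 TPM in C57, and 24.1, 24.1, 36.1 and 34.1 TPM and 34.98, 40.8, 36.6 and 36.2 TPM in PWD. PWD overlaps between treatments and B6 and C57 do not. The rise was 0.80 ± 0.11 (limma adjusted p = 5.14e-07), 0.66 ± 0.11 (limma adjusted p = 1.54e-05) and 0.34 ± 0.11 (limma adjusted p = 0.00964), and in PWD it was 0.25 (limma adjusted p = 0.0521) without untreated replicate 2. Untreated PWD stood 1.47 ± 0.11 (limma adjusted p = 7.51e-12) above untreated B6. Slc43a3, a purine nucleobase carrier, was higher in C57 than in B6 by 1.44 ± 0.13 (limma adjusted p = 2.64e-09) untreated and 1.61 ± 0.13 (limma adjusted p = 1.10e-10) with LPS, at 23.2 to 30.3 TPM against 7.04 to 11.5 TPM and 20.8 to 29.4 TPM against 6.74 to 9.20 TPM. The thiamine carrier Slc19a2 fell, with changes of -1.58, -1.23 and -1.37 (limma adjusted p up to 2.07e-09), from 4.30 to 6.43 TPM to 1.07 to 1.42 TPM in B6. The ascorbate carrier Slc23a2 rose in C57 from 69.2 to 77.9 TPM to 94.2 to 108 TPM (log2 change 0.47 ± 0.10 SE, limma adjusted p = 0.00041). In PWD it went from 51.1 to 70.7 TPM to 81.02 to 87.1 TPM, without overlap, and in B6 treated and untreated libraries overlap.

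Of the remaining carriers, Slc66a2, a protein of the PQ-loop family, had 10.6 to 15.2 TPM in untreated B6 and 3.29 to 4.49 TPM with LPS, 18.3 to 21.4 TPM and 6.83 to 8.70 TPM in C57, and 22.2 to 26.6 TPM and 15.3 to 17.6 TPM in PWD. It changed by -1.55 ± 0.11 (limma adjusted p = 1.37e-12), -1.23 ± 0.11 (limma adjusted p = 3.25e-10) and -0.58 ± 0.11 (limma adjusted p = 3.73e-05), and the fall in PWD was smaller than in B6 by 0.97 ± 0.15 (limma adjusted p = 2.38e-05). Treated PWD stood 1.83 ± 0.11 (limma adjusted p = 2.01e-14) above treated B6, with no overlap. Slc49a4, which exports pyridoxine from lysosomes, rose in B6 from 9.12 to 10.9 TPM to 13.3 to 18 TPM (log2 change 0.61 ± 0.10 SE, limma adjusted p = 7.94e-06), and the response of C57 differed by -0.82 ± 0.15 (limma adjusted p = 0.000338). Among symbols that are no carriers, the pseudogene Slc39a1-ps (chr2:30159398-30160366) had 13.5 to 17.03 TPM in untreated PWD and 12.8 to 17.5 TPM in treated PWD. In the 16 other libraries it had at most 0.214 TPM. It passed the level through PWD, so the log2 differences from B6 of 3.87 and 3.998 are a description. It is a processed copy of the zinc carrier Slc39a1, and reads of near-identical copies are uncertain.

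Between strains, more members were higher than lower against B6, as were more genes in all. Untreated PWD had 86 members higher and 28 lower than untreated B6, where 37.2% of all genes were higher and 19.7% lower, 57% in all. With LPS the count was 95 and 30, where 49.7% of all genes were higher and 19% lower, 68.6% in all. Untreated C57 had 74 higher and 13 lower, where 31.9% and 6.92% of all genes were, 38.8% in all. With LPS C57 had 92 higher and 20 lower, where 49.1% and 9.69% were, 58.8% in all. The PWD and C57 comparisons share the B6 libraries. After median-of-ratios scaling the counts were 75 and 40, 77 and 53, 55 and 27, and 64 and 49. In the deposited TPM, without the 19 members that could pass the level only by differing, 155 remained. Their counts were 77 and 25, 86 and 28, 71 and 10, and 90 and 16. Over all 174 members, the split for untreated PWD also differed between mouse numbers. It was 49 and 40 within mice 1 and 2 and 101 and 20 within mice 3 and 4. Between these mice both structural RNA and Xist differed, with Xist expressed in mice 3 and 4, and these cannot be told apart. By role, lipid and vitamin carriers had medians of 0.63 and 0.77 in PWD and 0.40 and 0.78 in C57, without and with LPS, and sugar and monocarboxylate carriers 0.67 and 0.67 in PWD and 0.50 and 0.53 in C57. Endolysosomal carriers had 0.09 and 0.04 in PWD, with 4 higher and 4 lower untreated and 4 and 5 with LPS.

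The LPS response itself differed from that of B6 for 46 members in PWD, 25 with a higher and 21 with a lower change, where 16.0% and 7.50% of all genes were called so and 23.5% in all. In C57 it differed for 27 members, 20 and 7, where 10.9% and 3.39% of all genes were called so and 14.3% in all. After median-of-ratios scaling these were 29 and 39 for PWD and 24 and 40 for C57, so the balance of directions turned with the scaling. Within mice 1 and 2 the PWD split was 45 and 11, and within mice 3 and 4 it was 11 and 27. The count for C57 within mice 1 and 2 was 11. Over all mice, without the 19 members that could pass the level only by differing, the splits were 22 and 18 for PWD and 17 and 7 for C57. The differences for PWD included Slc27a1, Slc20a1 and Slc38a1 on the side of a higher change in PWD, and Slc28a2, Slc25a22, Slc7a8, Slc38a6 and Slc37a2 on the other side, with the values given above.

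**Figure D5:**
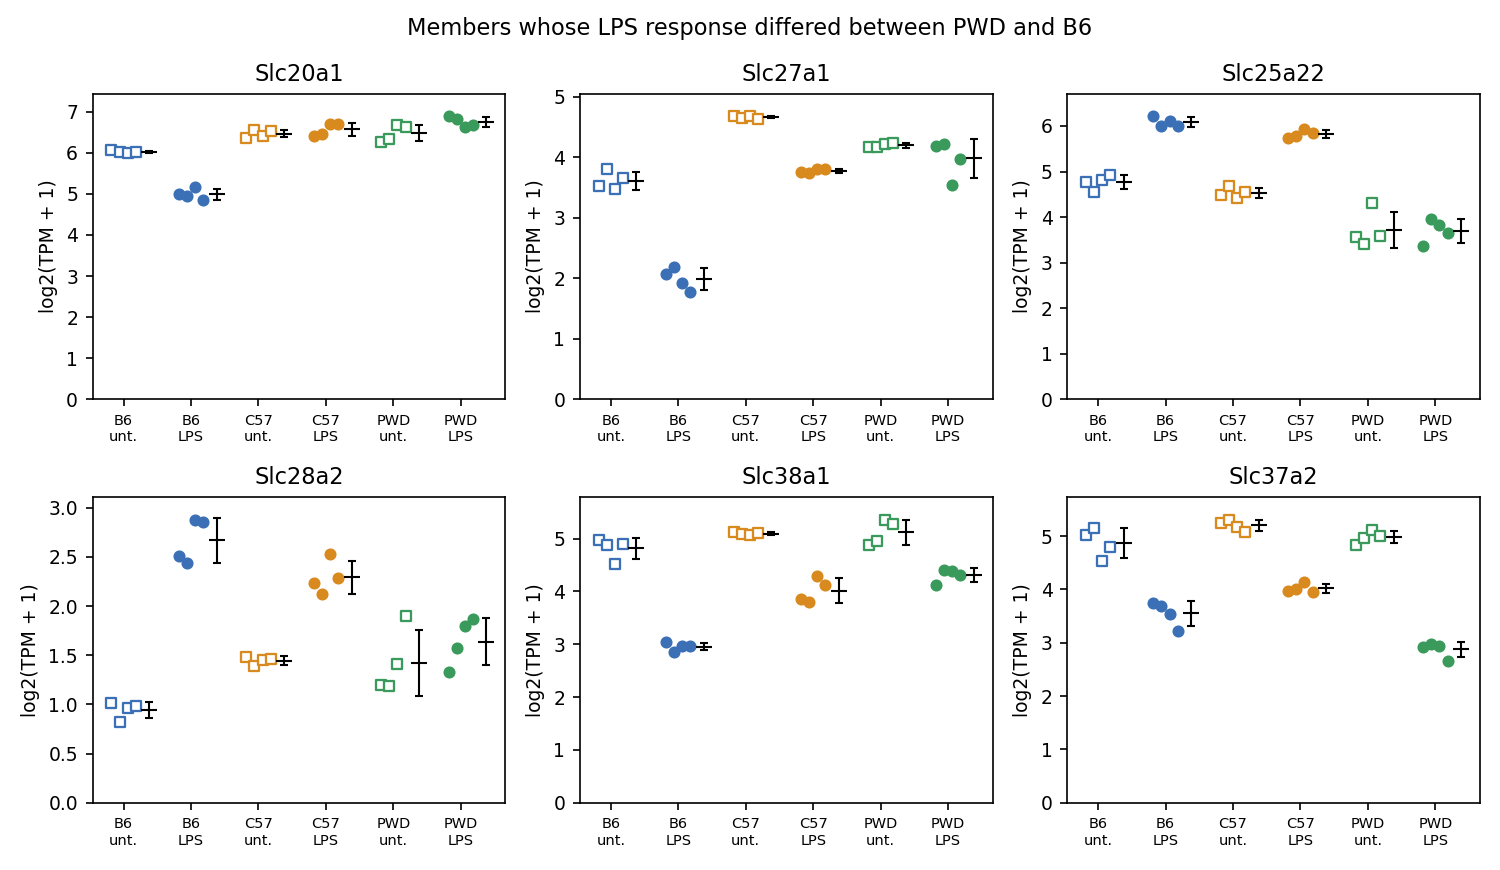
log2(TPM + 1) of 6 members in the 24 libraries (open squares, untreated, "unt."; filled circles, LPS; blue B6, orange C57, green PWD), with mean and SD of each group in black. With LPS Slc20a1 stands lower in B6, and Slc38a1 fell further in B6 than in C57 or PWD. Slc27a1 fell further in B6 than in C57, and its PWD groups overlap. Slc25a22 and Slc28a2 stand higher in B6 and C57, and Slc37a2 fell further in PWD than in B6.

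Transporters without an Slc symbol were read from a list of 26 genes, 24 of which were tested. With LPS 2 rose and 18 fell in B6, 1 and 18 in C57, and 1 and 18 in PWD, with medians of -0.57, -0.64 and -0.65. Of all genes, 59.7%, 52.2% and 52.4% were called lower, with medians of -0.43, -0.32 and -0.32. No count of this list was made under other scalings. Untreated PWD had 14 higher and 4 lower than B6, where 37.2% of all genes were higher and 19.7% lower. Untreated C57 had 12 and 0, where 31.9% and 6.92% of all genes were. These genes are named after their values were seen. The gene that rose in every strain was Mfsd14b, with 0.71, 0.29 and 0.25 on the log2 scale (limma adjusted p up to 0.0475). Falls included the lysosomal cystine exporter Ctns (-1.34, -0.99 and -1.06), the phosphate exporter Xpr1 (-1.38, -1.09 and -1.05) and the mitochondrial uncoupling protein family member Ucp2 (-0.89, -0.69 and -0.73), whose mean was 695.6 TPM in untreated B6 and 374.5 TPM with LPS.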

How the data were processed

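Gene levels were deposited by the authors as TPM, 1 value per gene and library, in a table of 55401 rows for 24 libraries, each summing to 1000000. STAR, edgeR and build mm10 are named per the submitters' processing notes, with no versions. No source used here gives the counting, its use of strand or the read depth, so no counting interval is given. Libraries were stranded and made from 1 µg of total RNA, per the labels' protocols. PWD reads were set against the same build, and the effect on PWD levels was not tested.

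Rows with a shared symbol were summed, and limma 3.58.1 (R 4.3.3) was fitted on log2(TPM + 1), which understates changes of low genes, with 6 group means, trend and robust moderation. Kept were 13246 genes, those at 1 TPM or above in 4 libraries or more, p-values were two-sided and adjusted by Benjamini-Hochberg over these genes, and 0.05 was the threshold. The 9 comparisons were LPS against untreated per strain, PWD or C57 against B6 per treatment, and the difference of responses. The deposited TPM were not rescaled in the main fit. Members, role lists and marker lists were chosen with earlier results of these data known. Named genes are members called without overlap of libraries and averaging at least 5 TPM in the higher group (the 6 largest changes per direction and comparison), the 3 most abundant of each role, and 24 members from a list of 25 genes, 76 in all, of which 64 are described with tests. Other markers summed low: T and NK cell markers reached 0.246 TPM, erythroid 2.67, B and plasmacytoid dendritic cell 4.55 and stromal and endothelial 10.99.

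Replicate numbers were taken to pair the untreated and treated library of a mouse, since the design text names individual mice. Deviations from group means of the 12 such pairs correlated with r of 0.0513 to 0.176, highest with the own partner in 9. The alternatives were other pseudocounts, filters and scalings, a replicate block, fewer libraries and a fit without trend and robust moderation. TPM without structural RNA was added after seeing the data.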

Additional observations from a re-analysis of the deposited data

Results flagged for a closer look

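Each group of 4 libraries was examined for a library far from the other 3, with the gap to the nearest library above Dixon's 95% critical value as a share of the range. Of 384 groups (64 genes in 6 groups), 19 held such a library, and chance gives about 19.2. The high ones, in TPM with the other libraries in brackets, were Slc19a2 in C57_LPS replicate 3 (4.89, others 4.34 to 4.35), Slc25a22 in PWD_Untreated replicate 3 (18.8, others 9.69 to 10.96) and Slc25a25 in C57_Untreated replicate 4 (16.2, others 14.5 to 14.6). Slc25a37 had 23.7 in B6_LPS replicate 3, Slc25a39 had 51.4 in C57_Untreated replicate 3, Slc29a3 had 37.3 in C57_LPS replicate 3 and Slc2a9 had 2.09 in C57_Untreated replicate 4. Slc35a2 had 17.7 in C57_LPS replicate 4, against 10 to 11.06 in the others. Slc43a3 had 9.20 in B6_LPS replicate 2, Slc4a7 had 36.5 in C57_LPS replicate 3, Slc7a5 had 9.56 in B6_LPS replicate 1 and Slco2b1 had 1.61 in PWD_LPS replicate 2. Near 0 stood Slc39a1-ps in B6_LPS replicate 4 (0.0912) and Slc4a5 in C57_LPS replicate 1 (0.262). The low ones were Slc30a4 in PWD_LPS replicate 1 (14.8), Slc33a1 in B6_LPS replicate 2 (25.04), Slc38a2 in B6_Untreated replicate 3 (38.2), Slc45a4 in C57_Untreated replicate 3 (10.5) and Slc4a5 in PWD_LPS replicate 1 (8.74).

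The LPS response differed from that of B6, by the interaction term in limma, for these named members at a pseudocount of 1 TPM. In PWD the differences on the log2 scale were 1.27 for Slc1a2, -1.24 for Slc7a8, 1.05 for Slc38a1, -0.84 for Slc38a6, -0.78 for Slc37a2 and 0.98 for Slc36a1. The Slc1a2 value is a description, since the gene passed the level through treated libraries alone. With a pseudocount of 0.1 TPM the values for Slc1a2 and Slco2b1 were 0.32 and -0.46, and neither was called. The differences were -1.34 for Slc25a22, -1.51 for Slc28a2, 1.30 for Slc20a1, -1.51 for Slco2b1, 1.41 for Slc27a1 and 0.97 for Slc66a2. In C57 they were 1.00 for Slc1a5, 0.78 for Slc38a1, -0.79 for Slc38a6, -0.88 for Slc28a2 and -0.56 for Slc33a1. They were 0.97 for Slc37a3, 0.77 for Slc35a2, 1.14 for Slc20a1, 0.74 for Slc27a1 and -0.82 for Slc49a4.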

How the results depend on the processing

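Scaling, structural RNA and the mice used moved the counts most. The count of members whose LPS response differed between PWD and B6 went from 46 to 92 in TPM without structural RNA. For C57 it went from 27 to 64 with median-of-ratios scaling, 51 with quantile normalization, 63 without structural RNA and 11 with replicates 1 and 2 alone. The other 7 comparisons' counts, both directions together, stayed within 1.5 times the main count under every alternative run. Counts by direction moved further with scaling: members higher in all 3 strains with LPS went from 9 to 26 and those lower from 81 to 46 with median-of-ratios scaling. Leaving out 1 library at a time gave 126 to 137 members called for LPS in B6, 118 to 133 in C57, 123 to 128 in PWD, 103 to 121 and 116 to 123 for PWD against B6 without and with LPS, 74 to 83 and 103 to 111 for C57 against B6, and 42 to 55 and 21 to 33 for the differences of responses. With quantile normalization the higher and lower members for LPS were 54 and 73 in B6, 31 and 70 in C57, and 45 and 76 in PWD. The replicate block gave 130 and 127 members for LPS in C57 and PWD, 115 and 125 for PWD against B6, 84 and 113 for C57 against B6, and 51 and 30 for the differences, and it changed no call among the 192 named gene values.

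Of those 192, 180 kept direction and call with median-of-ratios scaling, 183 with quantile normalization, 190 with a pseudocount of 0.1 TPM, 182 with replicates 1 and 2 and 185 with replicates 3 and 4. Direction turned for 4 uncalled changes and for Slc25a3, called lower with LPS in B6 and called higher, at 0.14, with median-of-ratios scaling. For LPS in PWD, Slc25a22 was 0.33 with median-of-ratios scaling, 0.34 with quantile normalization, 0.17 with replicates 1 and 2, 0.0495 without structural RNA and -0.12 to 0.18 with 1 library left out. Slc27a1 was 0.14, 0.10 and 0.0441 under the first 3 of these, and Slc7a8 was -0.00586 with replicates 3 and 4. For LPS in C57, Slc20a1 was -0.0264 with replicates 1 and 2. The cause was not tested. Depth is unknown, so the precision of low levels cannot be stated.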
